A study of Mus musculus with 4 samples.

Results

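NF-κB is a family of transcription factors that carry T cell receptor, costimulatory and cytokine signals to the genes of inflammation and survival. Its RNA was examined here through 10 genes, picked by symbol out of the 16555 genes listed: the subunit genes Nfkb1, Nfkb2, Rel, Rela and Relb, the IκB genes Nfkbia, Nfkbib, Nfkbie and Nfkbiz, and the feedback gene Tnfaip3. RNA came from CD4+ T cells sorted as CD45+CD3+CD4+ from the colon of Rag1-/- mice with colitis, 6 weeks after transfer of CD4+CD25-CD45RBhi donor T cells. The donors were CK2α fl/fl mice in 1 group of 2 libraries and CK2α fl/fl dLck-Cre mice in the other group of 2 libraries. The floxed CK2α alleles and the Rag1-/- hosts were thus common to both groups, and the dLck-Cre transgene, which places Cre under the distal Lck promoter that is active in mature T cells, was the labelled difference between them. Rag1-/- hosts make no T or B cells of their own but keep their myeloid and epithelial cells. The labels give no age, and do not say whether a library holds 1 animal or a pool, so p-values measure the spread between these libraries, which may be technical.

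In resting cells NF-κB dimers are held in the cytoplasm by IκB proteins. Signals that activate the IκB kinase (IKK) complex lead to destruction of IκB, the dimers enter the nucleus, and among the first genes that they switch on are Nfkbia and Tnfaip3, whose products end the response. The kinase CK2, of which CK2α is a catalytic subunit, is known to phosphorylate both the p65 subunit and IκBα. RNA levels report on the supply and the feedback arm of this system, and not on phosphorylation or nuclear entry.

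The DNA around the starts of these genes was searched for the sequence that NF-κB dimers recognise. RefSeq promoter windows on GRCm38.p6, from 250 bases before to 50 bases after an annotated start, were found for 7 of the 10 genes; Nfkb1, Relb and Nfkbiz had no entry. The κB consensus was searched as its 10-base degenerate form on both strands, and overlapping matches were counted separately. A match was present in at least 1 window of 5 of the 7 genes, Nfkb2, Rel, Nfkbia, Nfkbie and Tnfaip3, and in none of the windows of Rela and Nfkbib. Over all genes with a window and a row in the deposited table, 12.3% had a match, 1346 of 10931. The windows of Nfkbia (chr12:55492598-55492897, minus strand), Tnfaip3 (chr10:19015361-19015660, minus strand), Nfkb2 (chr19:46304487-46304786, plus strand) and Rela (chr19:5637291-5637590, plus strand) are given 5′ to 3′ on the gene's strand, because they set the feedback genes with the highest RNA levels beside a subunit gene with matches and one without. Capitals mark κB matches.
Nfkbia: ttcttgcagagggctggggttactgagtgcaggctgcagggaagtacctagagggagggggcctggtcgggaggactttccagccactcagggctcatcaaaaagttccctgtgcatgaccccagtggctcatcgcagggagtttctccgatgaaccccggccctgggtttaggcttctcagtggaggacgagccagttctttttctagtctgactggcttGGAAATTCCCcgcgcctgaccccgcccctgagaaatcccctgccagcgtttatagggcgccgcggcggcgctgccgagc
Tnfaip3: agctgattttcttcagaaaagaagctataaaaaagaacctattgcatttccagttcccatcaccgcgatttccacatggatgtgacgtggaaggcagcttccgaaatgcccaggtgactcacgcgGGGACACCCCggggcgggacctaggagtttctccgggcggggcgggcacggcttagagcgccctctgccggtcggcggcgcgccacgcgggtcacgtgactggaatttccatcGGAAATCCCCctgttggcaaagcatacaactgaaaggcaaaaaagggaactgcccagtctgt
Nfkb2: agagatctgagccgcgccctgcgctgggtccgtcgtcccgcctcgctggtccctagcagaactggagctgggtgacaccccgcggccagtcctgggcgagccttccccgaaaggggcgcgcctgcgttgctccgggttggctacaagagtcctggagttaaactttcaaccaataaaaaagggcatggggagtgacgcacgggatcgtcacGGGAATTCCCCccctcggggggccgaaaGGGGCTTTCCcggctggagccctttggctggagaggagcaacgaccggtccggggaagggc
Rela: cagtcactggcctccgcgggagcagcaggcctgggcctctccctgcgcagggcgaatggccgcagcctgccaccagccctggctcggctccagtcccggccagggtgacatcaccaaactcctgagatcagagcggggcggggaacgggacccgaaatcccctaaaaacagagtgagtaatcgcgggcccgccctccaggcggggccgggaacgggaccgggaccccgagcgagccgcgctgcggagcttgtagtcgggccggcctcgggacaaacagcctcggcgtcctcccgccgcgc
The Nfkbia window held 1 match, the Tnfaip3 window shown held 2, and the Nfkb2 window shown held 3, of which 2 overlap by all but 1 base. Another Tnfaip3 window (chr10:19011914-19012213) held 0 matches, and the other Nfkb2 windows held 2 and 1. A match describes these letters and is not evidence that NF-κB was bound there.

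Before the comparison, the libraries were checked against their labels. The whole reads recovered from the table came to 18517974 and 17666457 in fl/fl controls and to 16777017 and 22422971 in the other group. Csnk2a1, which encodes CK2α, was not lower where dLck-Cre was labelled: it had 1534 and 1597 normalized counts in fl/fl controls and 2118 and 2031 in the others (log2 difference 0.41 ± 0.13 SE; limma, adjusted p = 0.108), and after scaling to 20 T cell identity genes limma called it higher (0.98; interval 0.66 to 1.30; adjusted p = 0.00774). That scaling called 35.7% of all genes higher, at an all-gene median log2 difference of 0.55. Gene-level counts do not resolve a deleted exon, so the second group is called by its label, the dLck-Cre-labelled libraries. Csnk2a2 differed by -0.09 (adjusted p = 0.808) and Csnk2b, the regulatory subunit gene, by -0.35 (adjusted p = 0.174). CD4 T cell markers were present in every library, with Cd4 at 18035, 18818, 12615 and 13443 normalized counts. The 20 T cell identity genes took 0.816% to 0.834% of reads in fl/fl controls and 0.566% to 0.636% in dLck-Cre-labelled libraries, with 7 of 20 lower, 0 higher and a median log2 difference of -0.55. The 18 epithelial markers took 0.183% to 0.196% against 0.438% to 0.560%, with 17 higher and a median of 1.30, and the 18 monocyte, macrophage and dendritic cell markers 0.144% to 0.257% against 0.411% to 0.509%, with 13 higher and a median of 1.12. Neutrophil markers (7 genes, 1 higher) took 0.0148% to 0.0357% against 0.0271% to 0.0291%, CD8 T and NK cell markers (4 genes, 0 called; DESeq2 called 0) 0.00108% to 0.00276%, and stromal and endothelial markers (7 genes, 0 called; DESeq2 called 1) 0.00853% to 0.0185%. Of the 5 B cell markers, Cd79a alone was tested, at 5.2 to 21.3 normalized counts, without a call. In bulk RNA, fewer cells of a type and less RNA per cell cannot be told apart.

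None of the 10 genes differed between the groups past the threshold. Beside them 6.97% of the 16490 genes tested were called by limma at an adjusted p under 0.05, 5.75% higher and 1.22% lower in dLck-Cre-labelled libraries. At an unadjusted p under 0.05, 0 of the 10 passed against 23.9% of all genes. edgeR and DESeq2 on the recovered reads also called 0 of the 10, against 6.87% and 10.7% of all genes, and each had 1 of the 10, Tnfaip3, under an unadjusted p of 0.05. The median log2 difference of the 10 genes was 0.02, and that of all genes was -0.02. With the values as scaled by the authors, every one of the 10 intervals (95%, limma) lay within a 2-fold change in either direction. On the log2 scale the lowest bound was -0.74 for Tnfaip3 and the highest 0.68 for Nfkbib. This did not hold after scaling to T cell identity genes, as given below. The groups failed to overlap for 2 of the 10 genes, Nfkbib and Tnfaip3, against 55.2% of all genes tested.

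**Figure D1:**
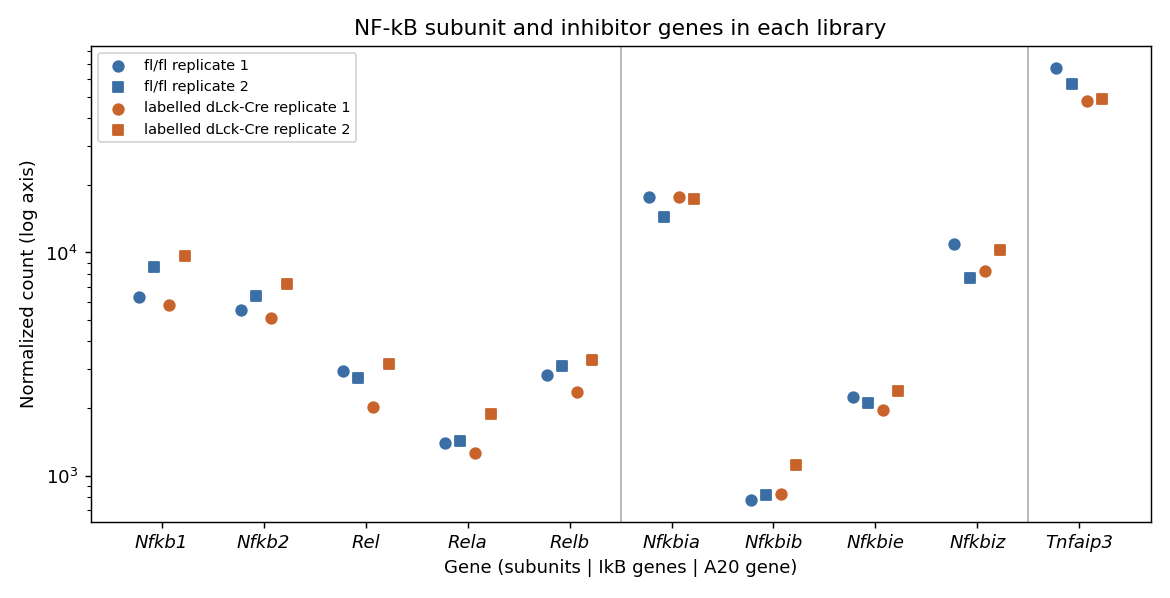
Normalized counts (log axis) of the 10 genes in each of the 4 libraries, circles for replicate 1 and squares for replicate 2. Nfkbib is higher and Tnfaip3 lower in both dLck-Cre-labelled libraries, and the groups overlap for the other 8 genes.

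The subunit genes overlapped between the groups, each with its highest value in a dLck-Cre-labelled library and its lowest in the other library of that label. Nfkb1 (chromosome 3, 135584655 to 135691547, minus strand, GRCm38), which encodes p105, the precursor of p50, had 6316 and 8597 normalized counts in fl/fl controls and 5792 and 9686 in dLck-Cre-labelled libraries. Its log2 difference was 0.02 ± 0.26 (SE; adjusted p = 0.968), and the 95% interval ran from -0.57 to 0.62. Rela, which encodes p65, the activating partner of p50, lies on chromosome 19 (5637483 to 5648130). It had 1404 and 1423 normalized counts against 1265 and 1897, a log2 difference of 0.13 ± 0.20 (adjusted p = 0.740; interval -0.33 to 0.60). The fl/fl controls differed little from each other for Rela, and its spread lay between the dLck-Cre-labelled libraries.

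Rel, which encodes c-Rel, the subunit that T cells need for interleukin 2 and for full activation, is on chromosome 11 (23736847 to 23770970). It had 2953 and 2731 normalized counts in fl/fl controls and 2027 and 3176 in dLck-Cre-labelled libraries, a log2 difference of -0.16 ± 0.21 (adjusted p = 0.694; interval -0.65 to 0.33). This was the most negative difference of the 5 subunit genes, and the groups overlapped. The subunit genes of the alternative pathway also overlapped. Nfkb2 (chromosome 19, 46304320 to 46312385), which encodes p100, the precursor of p52 and itself an inhibitor, had 5522 and 6387 normalized counts against 5091 and 7227 (log2 difference 0.03 ± 0.19; adjusted p = 0.944; interval -0.41 to 0.47). Relb (chromosome 7, 19606217 to 19629438), the main partner of p52, had 2821 and 3095 against 2374 and 3303 (log2 difference -0.08 ± 0.18; adjusted p = 0.835; interval -0.49 to 0.34). For Nfkb2 and Nfkbib, genes annotated on the opposite strand share exon bases, and reads from the pair cannot be told apart, since the strand setting of the counting was not given.

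Of the IκB genes, 3 of 4 overlapped between the groups. Nfkbia (chromosome 12, 55489410 to 55492647), which encodes IκBα, the inhibitor that is destroyed within minutes of a signal and made anew by NF-κB, had 17696 and 14392 normalized counts in fl/fl controls and 17666 and 17358 in dLck-Cre-labelled libraries. Its log2 difference was 0.13 ± 0.15 (adjusted p = 0.647; interval -0.22 to 0.49), and only fl/fl replicate 2 stood below the other 3 libraries. Nfkbib (chromosome 7, 28758251 to 28767512), which encodes the more slowly degraded IκBβ, had 777 and 821 normalized counts against 823 and 1115. Both dLck-Cre-labelled libraries were above both others, the nearest values being 823 and 821, and the log2 difference of 0.26 ± 0.18 did not pass (adjusted p = 0.424; interval -0.16 to 0.68).

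Nfkbie (chromosome 17, 45555703 to 45563169), the gene of IκBε, had 2256 and 2114 normalized counts against 1965 and 2401, a log2 difference of -0.01 ± 0.15 (adjusted p = 0.981; interval -0.35 to 0.34). Nfkbiz (chromosome 16, 55811375 to 55838899) encodes IκBζ, a nuclear family member that works with p50 to switch on a second set of genes and is known to promote Th17 cells. It had 10908 and 7675 normalized counts against 8281 and 10285, a log2 difference of 0.01 ± 0.20 (adjusted p = 0.979; interval -0.45 to 0.48). The highest and the lowest value of Nfkbie both came from the dLck-Cre-labelled libraries and those of Nfkbiz from the fl/fl controls, so the groups overlapped for both genes.

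Tnfaip3 came nearest to the threshold. It lies on chromosome 10 (19000910 to 19015657, minus strand) and encodes A20, a ubiquitin-editing enzyme that stops signals upstream of IKK and restrains T cell and myeloid inflammation. Its normalized counts were 67441 and 56966 in fl/fl controls and 47834 and 48731 in dLck-Cre-labelled libraries (62203 ± 7407 and 48282 ± 635, SD, n = 2 each). Both dLck-Cre-labelled libraries were below both fl/fl controls. The log2 difference was -0.36 ± 0.16 (SE), with a limma adjusted p of 0.235 over all genes and an interval from -0.74 to 0.02, so the difference did not pass at this number of libraries. edgeR gave -0.35 (adjusted p = 0.210) and DESeq2 -0.36 (adjusted p = 0.170). In these libraries T cell identity genes were lower and epithelial and myeloid markers higher, and their part in the Tnfaip3 values was not tested.

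Levels of the 10 genes were set in order per kilobase of annotated exon, since counts of genes of different length do not compare. Nfkbia had the highest mean level, 10421 normalized counts per kilobase (8939 to 10992 over the 4 libraries), and Tnfaip3 followed with 7645 (6620 to 9333), so that these neighbours overlapped. They ranked 75 and 108 among the 16033 genes with a per-kilobase level, and neither range reached that of the next gene. Nfkbiz followed at 1851 (1530 to 2174), then Nfkb2 at 1321 (1111 to 1577), whose range overlapped that of Nfkbiz by a small margin and not that of the next gene. Relb at 746 (611 to 850), Nfkbie at 717 (645 to 788) and Nfkb1 at 630 (480 to 803) overlapped one another. Rela at 487 (412 to 617), Nfkbib at 408 (358 to 514) and Rel at 365 (271 to 425) closed the order, again with overlapping ranges. The whole order also rests on how much of each annotated exon set T cells use, which the data do not show. Counts were divided by 1610 exon bases for Nfkbia, 7226 for Tnfaip3 and 12061 for Nfkb1. In plain counts Tnfaip3 was the 13th most abundant gene of the table, with 0.266% to 0.350% of all reads.

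For the subunit genes the dLck-Cre-labelled libraries differed from each other by more than the group means did. All 5 subunit genes were higher in replicate 2 than in replicate 1 of that group, by between 1.39-fold for Relb and 1.67-fold for Nfkb1. Over all genes tested 50.9% were higher in replicate 2, and 17.3% reached the ratio of Relb. The IκB genes spread less, from 0.983-fold for Nfkbia to 1.36-fold for Nfkbib, and Tnfaip3 was at 1.02-fold. Between the fl/fl controls, replicate 2 against replicate 1, the 10 genes ran from -0.51 for Nfkbiz to 0.44 for Nfkb1 on the log2 scale. The median of the members lay near 0 and changed sign with the libraries kept: without replicate 2 their median log2 difference was -0.19 and 2 of 10 were positive, and without replicate 1 it was 0.17 and 9 of 10 were positive. Without fl/fl replicate 1 or 2 it was -0.0178 or -0.0129, with 5 or 4 of 10 positive. Without either dLck-Cre-labelled library limma called 0 of the 10, with 1 and 2 of them under an unadjusted p of 0.05.

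**Figure D2:**
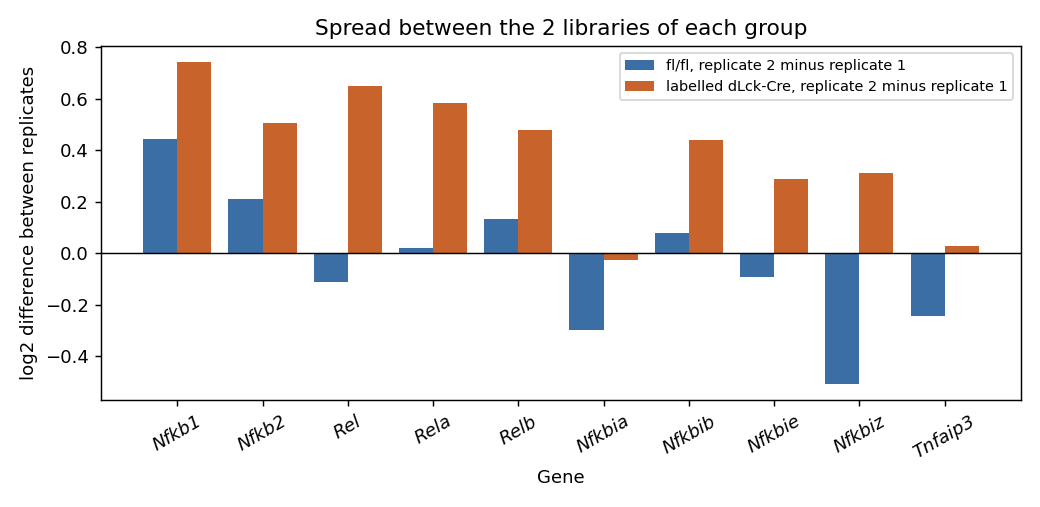
Bars give the log2 difference between replicate 2 and replicate 1 within each group, for each of the 10 genes. In the dLck-Cre-labelled libraries all 5 subunit genes stand between 0.48 and 0.74, whereas Nfkbia and Tnfaip3 lie near 0.

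Ratios within a library do not depend on how that library was scaled. Per kilobase, the summed levels of 4 inhibitor genes (Nfkbia, Nfkbib, Nfkbie and Tnfaip3, without the nuclear activator gene Nfkbiz) stood at 6.48 and 4.80 times those of the 5 subunit genes in fl/fl controls and at 6.45 and 4.41 times in dLck-Cre-labelled libraries. The groups overlapped (log2 difference -0.06; exact permutation test over libraries, two-sided, p = 0.667), and with 2 libraries a group this test cannot go below 0.333. Most of the inhibitor sum came from Nfkbia and Tnfaip3, with mean levels of 10421 and 7645 against 717 for Nfkbie and 408 for Nfkbib. The log2 differences of Nfkbia (0.13) and Tnfaip3 (-0.36) had opposite signs. In plain normalized counts, which weight long genes more, the ratios were 4.64 and 3.34 against 4.13 and 2.75 (log2 difference -0.22; exact permutation p = 0.667). The ratio of Nfkbia to Rela per kilobase, of inhibitor to its main target, was 24.1 and 19.3 against 26.6 and 17.5, a log2 difference of 0.0019 (exact permutation p = 1). The level of Tnfaip3 per kilobase was 0.849 and 0.882 times that of Nfkbia in fl/fl controls and 0.603 and 0.625 times in dLck-Cre-labelled libraries (log2 difference -0.49; exact permutation p = 0.333, the smallest possible). This pair was picked after its values were seen, and it had the widest gap between the groups among the 45 pairs of members. The groups lay apart in 13 of the 45 pairs, and in 5 of the 9 pairs that hold Tnfaip3. The share over all pairs of genes was not computed, and pairs that share a gene are not independent. These counts are thus not read as a result about the members or about Tnfaip3.

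**Figure D3:**
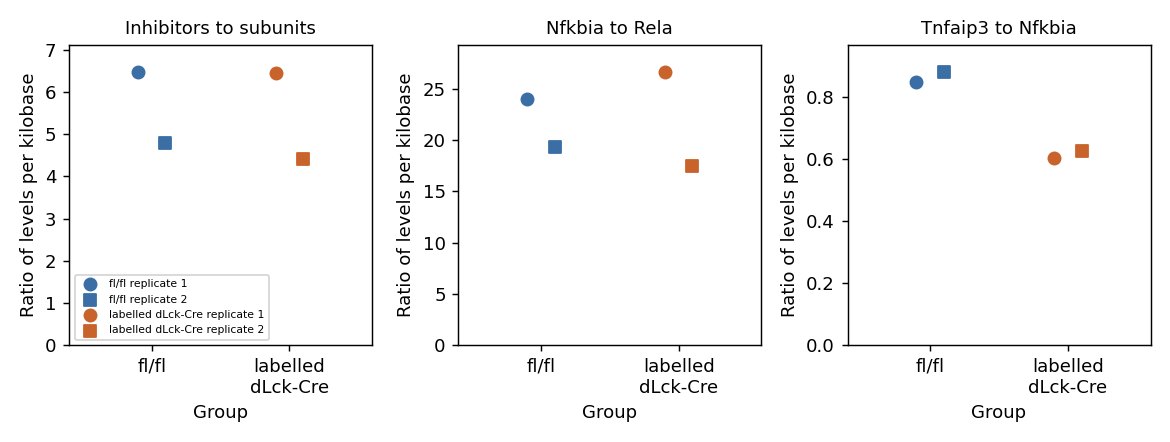
Each panel shows a ratio of levels per kilobase in the 4 libraries (axes start at 0). The groups overlap for inhibitors to subunits and for Nfkbia to Rela. Tnfaip3 to Nfkbia lies at 0.849 and 0.882 in fl/fl controls and at 0.603 and 0.625 in dLck-Cre-labelled libraries. That pair was picked after its values were seen and has the widest gap of 45 pairs of members, 13 of which lie apart. The share over all pairs of genes was not computed.

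Because T cell identity genes took fewer reads in dLck-Cre-labelled libraries, the values were also scaled to those 20 genes. The all-gene median shifted from -0.02 to 0.55, and limma then called 35.7% of all genes as higher, so that 99.3% of calls were higher against 82.4% before. The median of the 10 genes was 0.60, close to that of all genes, and 3 of them passed as higher: Nfkbia (0.71; adjusted p = 0.0199), Nfkbib (0.84; adjusted p = 0.0304) and Nfkbie (0.57; adjusted p = 0.0479). On this scale only the intervals of Nfkbie and Tnfaip3 stayed within a 2-fold change, and the highest upper bound was 1.36, for Nfkbib. All 10 genes were positive. Tnfaip3 was the lowest of them at 0.22 (adjusted p = 0.311; interval -0.18 to 0.61), below the median of all genes, and its sign was opposite to that under the size factors of the authors. This scaling moves all genes of a library by 1 factor, so the order of the 10 differences is nearly fixed between it and the size factors of the authors. Quantile normalization does not work by 1 factor, and it put Nfkbia (0.40) above Nfkbib (0.25).

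**Figure D4:**
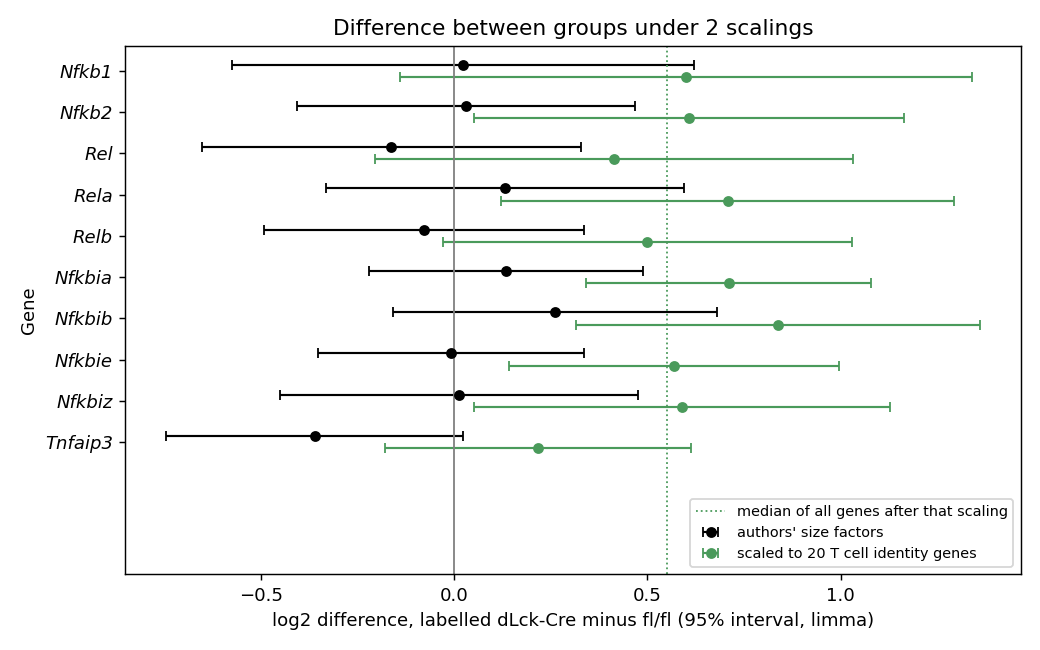
Points are log2 differences, labelled dLck-Cre minus fl/fl, and bars are 95% intervals from limma, for the size factors of the authors (black) and for scaling to 20 T cell identity genes (green); the dotted line is the median of all genes after the latter, 0.55. Black intervals all include 0, and the green points lie on both sides of the dotted line, from 0.22 for Tnfaip3 to 0.84 for Nfkbib.

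The remaining genes of the pathway were counted by role, in lists that hold 76 genes, all of them tested. Scaling to T cell identity genes, which called 35.7% of all genes higher, changed these counts: it called higher 7 of 14 genes of the IKK list, 1 of 6 of the T cell receptor module, 4 of 12 negative regulators, 11 of 22 targets known in T cells and 12 of 15 targets known from macrophages and epithelium, and none of the 3 other IκB-like genes or the 4 of the alternative pathway. The counts that follow are under the authors' size factors. No gene of the IKK complex and its upstream kinases and adaptors was called, 0 of 14 (1 had an unadjusted p under 0.05; edgeR and DESeq2 each called 0), at a median log2 difference of -0.07. Over all genes 23.9% had an unadjusted p under 0.05 in limma, and 55.2% did not overlap between the groups. Tab3 (-0.48; adjusted p = 0.152) and Tab2 (-0.29; adjusted p = 0.263), adaptors of the kinase TAK1 that activates IKK, had the smallest p-values. Of the kinase genes of the complex, which did not pass, Chuk (IKKα) stood at 1695, 1677, 1700 and 1698 normalized counts and Ikbkb (IKKβ), lower in both dLck-Cre-labelled libraries, at 2334, 2567, 2213 and 2127 in the order fl/fl replicates 1 and 2, then labelled dLck-Cre replicates 1 and 2 (these 2 genes were named after their values were seen).

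The module that links the T cell receptor to IKK also gave 0 calls of 6 (3 had an unadjusted p under 0.05; edgeR and DESeq2 each called 0), at a median of -0.28. Prkcq, which encodes the kinase PKCθ that starts this branch, had 1575 and 1749 normalized counts against 1416 and 1009 (log2 difference -0.47 ± 0.18; adjusted p = 0.174). Casp8, a protease that also takes part in receptor signals to NF-κB, had 1761 and 1643 against 2010 and 2556 (0.41 ± 0.16; adjusted p = 0.161). The groups did not overlap for any of the 6, with 5 lower and 1 higher, where 55.2% of all genes did not overlap and 23.9% had an unadjusted p under 0.05. Without dLck-Cre replicate 1, Prkcq passed as lower (-0.72; adjusted p = 0.0464). The T cell identity genes lay at a median of -0.55 in the same libraries.

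In the alternative pathway, in which the kinase NIK drives processing of p100, 0 of 4 genes were called by limma and 0 by edgeR, and 2 by DESeq2 (2 at an unadjusted p under 0.05 in limma), at a median of -0.42. Map3k14, the gene of NIK, had 1942 and 2786 normalized counts against 1466 and 1646, a log2 difference of -0.58 ± 0.19 (adjusted p = 0.116; DESeq2 0.0490). Without fl/fl replicate 1 limma called Map3k14 lower (-0.84; adjusted p = 0.0313). Birc2, which encodes cIAP1, a ubiquitin ligase that keeps NIK low, had 5059 and 6058 against 3650 and 4134, a log2 difference of -0.51 ± 0.15 (adjusted p = 0.0844; DESeq2 0.0455). Both genes were lower in both dLck-Cre-labelled libraries. The groups did not overlap for 3 of the 4 genes, all lower, against 55.2% of all genes tested. Over all genes DESeq2 called 10.7%, and 23.9% had an unadjusted p under 0.05 in limma. Nfkb2 and Relb overlapped. After scaling to T cell identity genes Map3k14 stood at -0.01 and Birc2 at 0.07.

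Of 12 further negative regulators 0 were called by limma (2 at an unadjusted p under 0.05) and 0 by edgeR, and DESeq2 called 1, Tnip3, at a median of -0.13. Over all genes 23.9% had an unadjusted p under 0.05 in limma, and DESeq2 called 10.7%. Tnip3, which encodes an A20-binding protein, had 892 and 1131 normalized counts against 1275 and 2560 (log2 difference 0.85 ± 0.30; adjusted p = 0.144; DESeq2 0.0170). Without dLck-Cre replicate 1 limma called it higher (1.35; adjusted p = 0.0118), and likewise after scaling to T cell identity genes (1.42; adjusted p = 0.0291). Cyld, the gene of a deubiquitinase, had 4915 and 4626 against 3879 and 3377 (-0.40 ± 0.13; adjusted p = 0.126). Of the 3 other IκB-like genes 0 were called (0 had an unadjusted p under 0.05; edgeR and DESeq2 each called 0). Nfkbil1 differed by -0.28 (adjusted p = 0.462) and Nfkbid, which encodes the nuclear protein IκBNS, by -0.17 (adjusted p = 0.667).

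Known NF-κB target genes were higher in part in dLck-Cre-labelled libraries. Of 22 targets known in T cells limma called 3 higher and 0 lower, at a median of 0.35, edgeR called 3 and DESeq2 5. Over all genes limma called 5.75% higher and 1.22% lower, and edgeR and DESeq2 called 6.87% and 10.7%. The further DESeq2 calls were Csf2, which encodes the cytokine GM-CSF (log2 difference 1.22; DESeq2 adjusted p = 0.00593; limma 0.0522), and Bcl2a1d, a survival gene with near-identical copies, which was lower (-0.53; DESeq2 adjusted p = 0.0496; limma 0.0830); both were named because the tools differed. Ier3, an early response gene that limits cell death, had 797 and 806 normalized counts in fl/fl controls and 1559 and 1635 in the others (log2 difference 0.99 ± 0.13; adjusted p = 0.0195). Cd83, a surface protein of activated lymphocytes and dendritic cells, had 609 and 295 against 1214 and 1239 (1.53 ± 0.31; adjusted p = 0.0332), and Irf1, an interferon response factor gene, had 8635 and 7490 against 11557 and 13749 (0.65 ± 0.15; adjusted p = 0.0474). The groups did not overlap for 14 of the 22 genes, these 3 among them, with 10 higher and 4 lower, against 55.2% of all genes tested. The other 19 did not pass in limma, among them Tnf (0.64, adjusted p = 0.137), Icam1 (0.55, adjusted p = 0.189) and Il2 (0.35, adjusted p = 0.530). Lower and not called were, among others, Bcl2a1b (-0.40, adjusted p = 0.111) and Tnfrsf4 (-0.25, adjusted p = 0.354). These examples were picked with their values in view, and 16 of the 22 differences were positive.

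Of 15 targets known from macrophages and epithelium 9 rose and 0 fell in limma, at a median of 1.11, and edgeR and DESeq2 each called 9. Over all genes limma called 5.75% higher and 1.22% lower, and edgeR and DESeq2 called 6.87% and 10.7%. The 9 of DESeq2 were not the same as those of limma. They held Cxcl1 (DESeq2 adjusted p = 0.0454, limma 0.126), named because the tools differed. Il1b, the interleukin 1β gene, had 7541 and 6303 normalized counts against 17272 and 16990 (log2 difference 1.31 ± 0.14; adjusted p = 0.0195). Ptgs2, which encodes cyclooxygenase 2, had 3357 and 2882 against 6925 and 5792 (1.03 ± 0.15; adjusted p = 0.0195). Tnfaip2 (1.31; adjusted p = 0.0266), the chemokine genes Cxcl2 (1.11; adjusted p = 0.0310) and Cxcl10 (1.45; adjusted p = 0.0320) and Il1a (1.26; adjusted p = 0.0316) rose as well. These differences were of the size of those of the epithelial (median 1.30) and myeloid markers (median 1.12) in the same libraries, whose part in them was not tested. Without dLck-Cre replicate 2 the medians of these lists were 0.001 and 0.80. Calls were then lost over all genes, those of both lists included. Irf1 also lost its call without fl/fl replicate 1 (adjusted p = 0.0602) or 2 (0.177), and Cd83 without dLck-Cre replicate 1 (0.0542). The rise of these targets stood beside subunit genes at a median of 0.02, and the difference between lists was not tested.

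**Figure D5:**
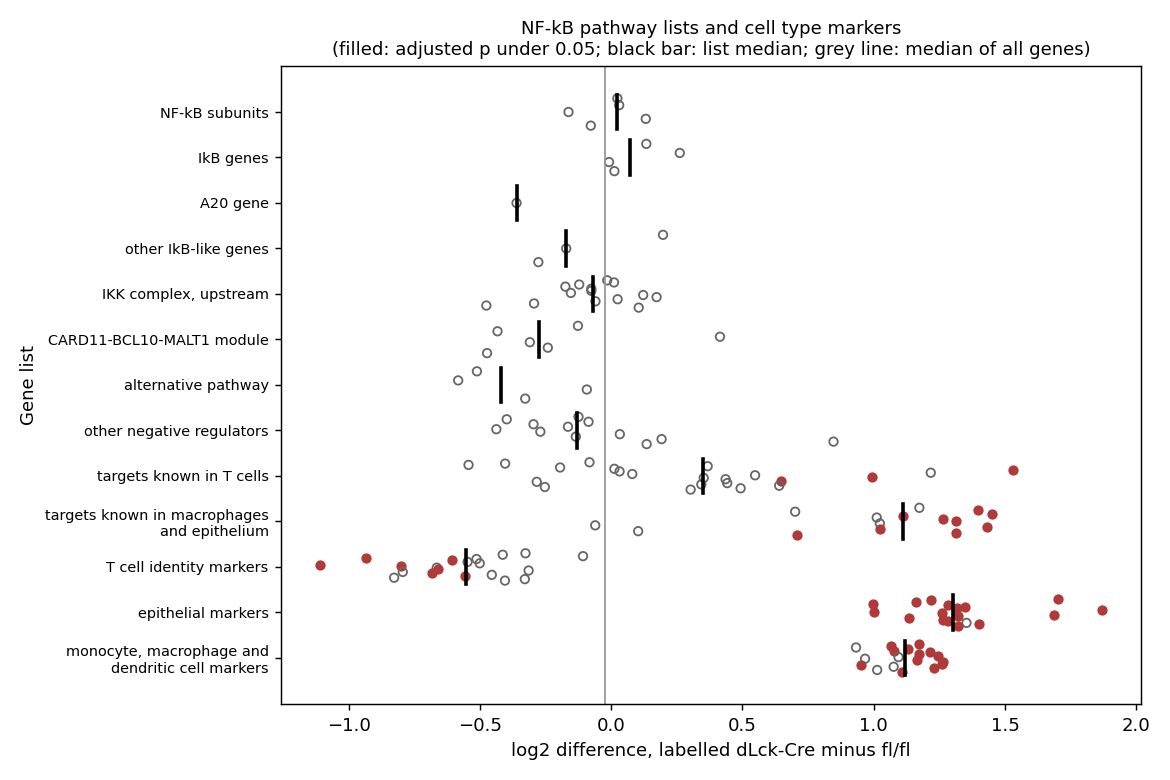
Each circle is a gene, placed by its log2 difference (labelled dLck-Cre minus fl/fl); filled circles have an adjusted p under 0.05, black bars are list medians and the grey line is the median of all genes, -0.02. Filled circles occur in both target lists and in the 3 marker lists, and in none of the lists of subunits, inhibitors and signalling genes.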

How the data were processed

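Sequencing of RNA from colonic CD4+ T cells gave 4 libraries, 2 per donor genotype. Per the submitters' processing notes reads were placed on mm10; how they were aligned and counted, and on which strand, was not given in the sources used here. As a signal, the deposited table holds counts scaled by the authors with 1 factor for each library: in each library 100% were whole multiples of 1 step (tolerance 1e-06), which equalled the reciprocal of a median-of-ratios size factor. The replicates of a group differed by a chi-square of 24.4 (fl/fl) and 34.5 (labelled dLck-Cre) per gene, beyond sampling noise.

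A mean of 10 or more was required, and log2 of the value plus 1 was compared in limma 3.58.1 (trend on intensity; R 4.3.3), so fold changes of low genes are understated. P-values were adjusted over all genes by Benjamini-Hochberg, with a threshold of 0.05. The recovered reads were also tested with DESeq2 1.42.0 and with the quasi-likelihood test of edgeR 4.0.16. These procedures were tested on simulated data. The members and lists were chosen with earlier results of these data known. Named were the 10 genes, the CK2 subunits, and in each pathway list the called genes up to 6 by p-value, or the 2 of smallest p where fewer than 2 passed; genes named after their values were seen are said to be so. Positions and exon lengths came from GENCODE vM21 (GRCm38, the assembly of mm10), by symbol, and promoters from RefSeq. Figures were drawn with matplotlib 3.10.9.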

Additional observations from a re-analysis of the deposited data

How the results depend on the processing

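The call of 0 of the 10 genes held under pseudocounts of 0.5 and 5, edgeR, DESeq2, robust limma, limma lacking the trend, no filter, a minimum mean of 50, quantile or TMM scaling, the replicate block and without each library (0 to 0); scaling to T cell identity genes called 3. The count over all genes was 1150, and became 341 after quantile normalization, 5954 after scaling to T cell identity genes, 0 in limma without trend (3443 at an unadjusted p under 0.05), 1768 in DESeq2, 2096 with the replicate block, and 0 to 1231 without 1 library, the 0 without dLck-Cre replicate 2 (2810 at an unadjusted p under 0.05). Higher calls made up 82.4% of the count, 99.3% after scaling to T cell identity genes and 70.4% with the replicate block. The labels do not say that a replicate number marks a shared animal, litter or day; replicate 1 minus replicate 2 correlated between the groups at 0.11 over 16490 genes, and with 2 pairs the numbers were not taken as pairing. The replicate block called 0 of the 10 genes, and of the other named genes it added Birc2 (adjusted p = 0.0273), Map3k14 (0.0306) and Tnip3 (0.0234).

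Small differences changed sign. After scaling to T cell identity genes the log2 differences were Rel 0.41, Relb 0.50, Nfkbie 0.57, Tnfaip3 0.22, Nfkbil1 0.30, Nfkbid 0.41, Tab3 0.10, Tab2 0.28, Prkcq 0.10, Birc2 0.066, Cyld 0.18, Csnk2a2 0.48 and Csnk2b 0.22, by construction of a scaling that raised all genes. Relb was 0.059 after quantile normalization, and Nfkbie was 0.0092 with TMM, 0.099 with quantile normalization, 0.017 with edgeR and 0.0002 with DESeq2. Without 1 library the differences ran from -0.35 to 0.39 for Nfkb1, -0.22 to 0.28 for Nfkb2, -0.49 to 0.16 for Rel, -0.16 to 0.42 for Rela, -0.32 to 0.16 for Relb, -0.015 to 0.28 for Nfkbia, -0.15 to 0.14 for Nfkbie, -0.24 to 0.27 for Nfkbiz, -0.46 to 0.12 for Nfkbid and -0.30 to 0.12 for Csnk2a2. The log2 difference of the ratio of inhibitor to subunit reads ran from -0.52 to 0.068, and Tnfaip3 ran from -0.48 to -0.24. Without dLck-Cre replicate 2 the differences of the 9 called target genes named lay between 0.52 and 1.52. These genes lost their calls there and in limma without trend, as did all other called genes, and the cause was not tested. Cd83 (adjusted p = 0.0575), Il1a and Cxcl10 (both 0.0524) lost theirs after quantile normalization too. With 2 libraries a group, the limma intervals of the 10 genes all included 0 under the authors' size factors, with outermost bounds of -0.74 and 0.68. None of the 10 differences could thus be told from 0 on that scale. After scaling to T cell identity genes the bounds reached up to 1.36.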
